A study of Homo sapiens with 6 samples.

Results

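Acute-phase proteins are plasma proteins that hepatocytes secrete in larger or smaller amounts when tissue is injured or infected. IL-6 and related cytokines bind receptors that share gp130, JAK kinases then phosphorylate STAT3, and STAT3 acts at acute-phase promoters together with C/EBP factors and, for genes that also answer to IL-1, with NF-kB. Hep G2, a human liver tumor line, secretes many of these proteins in culture and has long served as a model of this response.

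Described here are 10 such genes among the 23524 genes of the FPKM table, chosen by symbol with earlier results of these data known. They are the serum amyloid A genes SAA1, SAA2 and SAA4, the pentraxin gene CRP, LBP, HP, HPX, ORM1, PLA2G2A and the transcription factor gene CEBPD. Polyadenylated RNA was sequenced from control Hep G2 cells (control, 3 libraries) and from Hep G2 cells that stably overexpressed EFTUD2, a GTPase of the spliceosome (EFTUD2, 3 libraries). The study names a vector lentivirus as control for its EFTUD2 lentivirus, but not for the sequenced controls in particular. The stable cells had been selected in puromycin, no cytokine is named for either group, and the labels do not say whether the libraries of a group came from separate cultures, so that p-values measure the spread between these libraries. The comparison asks which of these liver genes differ with EFTUD2 overexpression, since the study followed JAK-STAT3 signaling in EFTUD2-overexpressing cells. That signaling takes part in the acute-phase response, but its part in the values of these genes was not tested.

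Levels are FPKM, the fragments of a gene scaled to its transcript length and to the size of the library, and values of a group are given in the order of replicates 1 to 3 throughout. EFTUD2 itself measured 41.1, 54.4 and 46.3 FPKM across controls, against 106.6, 102.9 and 109.5 FPKM with EFTUD2, with no overlap between the groups (limma adjusted p = 0.13). The FPKM columns summed to between 404342 and 434542, and the number of reads behind a value is unknown. EFTUD2 replicate 3 stood apart from its group: over the genes tested, the SD of its log2 differences was 0.51 from replicate 1 and 0.6 from replicate 2, against 0.23 between those 2 libraries. Values without it are given where they change a call. EFTUD2 was called without it (limma adjusted p = 0.028). ALB, which defines hepatocytes, was at 1773 FPKM or more in each library, and each of 10 hepatocyte markers had a control mean of at least 1 FPKM.

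Of the 10 genes, 9 were tested, and 8 of these had a higher mean on the log2 scale with EFTUD2, as had 37.3% of all genes tested. The ratio of mean FPKM was 80.4 for LBP, 17.4 for SAA1, 13.7 for SAA2, 3.77 for HP, 2.22 for PLA2G2A and 1.73 for CEBPD. The ratio of LBP was 27.6 without EFTUD2 replicate 2 and 152 without control replicate 3. In EFTUD2 replicate 3 alone LBP was 4.67 times the highest control, less than SAA1 (17.6) and SAA2 (13.6). In these 6 genes each EFTUD2 library was above each control. HPX, ORM1 and SAA4 overlapped between the groups, and CRP was listed at 0 throughout. In these bulk libraries, more cells that express a gene and more RNA per cell cannot be told apart.

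**Figure D1:**
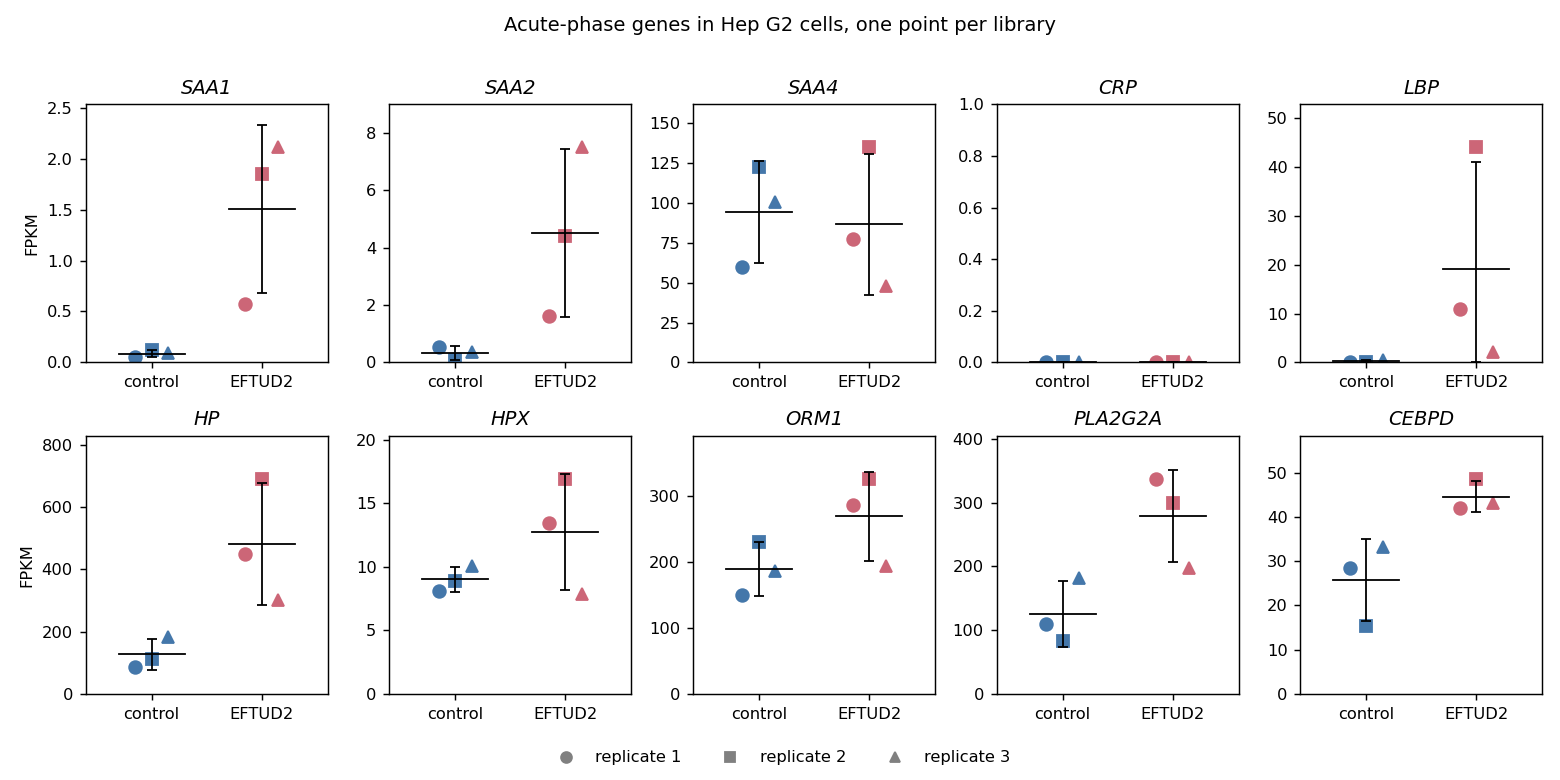
FPKM of the 10 acute-phase genes (vertical axes, linear and starting at 0, each panel with its own scale) in the 3 control and the 3 EFTUD2 libraries, with 1 point per library, the symbol giving the replicate number, and the group mean ± SD as a line with an error bar (the lower bar for LBP stops at 0). The EFTUD2 points lie above all controls for SAA1, SAA2, LBP, HP, PLA2G2A and CEBPD, overlap with them for SAA4, HPX and ORM1, and lie at 0 for CRP.

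Groups were compared with limma on log2(FPKM + 1), a scale that understates changes of genes with low values, over the 17222 genes that averaged 0.1 FPKM or more. At an adjusted p (Benjamini-Hochberg) under 0.05, 0 of the 9 tested members were called, as were 0 of all genes tested (0%). At an unadjusted p under 0.05, 6 members were higher and 0 lower, where 4.4% of all genes tested were higher and 7.9% lower. Each EFTUD2 library was above each control for 6 of the 9, a pattern shown by 7.92% of all genes tested, and the opposite pattern, with 19.4% of all genes, was shown by 0 members. A log2 fold change of at least 1 was found for 5 of the 9 members and for 1.25% of all genes tested. As the members were chosen with earlier results of these data known, these shares are a description and not a test. SAA1, with a control mean of 0.0867 FPKM, passed the limit of 0.1 FPKM only through the EFTUD2 libraries, so its place among the tested genes already required a difference.

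Without EFTUD2 replicate 3, LBP was called at an adjusted p of 0.033 from limma, where 0.891% of all genes tested were called higher. In that fit 8 of the 9 members, all but SAA4, were higher at an unadjusted p under 0.05, against 7.94% of all genes. With array weights SAA1, SAA2, LBP and HP were called (5.32% of all genes were called higher). The estimation of those weights did not converge, and it gave the lowest weight, 0.0348, to EFTUD2 replicate 1, which was close to replicate 2, and the highest, 27.7, to control replicate 3, so that these 4 calls rest mostly on few libraries. With the gene-by-gene estimator instead, chosen after the data were seen, SAA2, LBP, HP, HPX, ORM1 and PLA2G2A were called (4.21% of all genes higher). This estimator gave the lowest weight, 0.121, to EFTUD2 replicate 3 and the highest, 4.11, to EFTUD2 replicate 1, so these calls rest little on replicate 3.

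**Figure D2:**
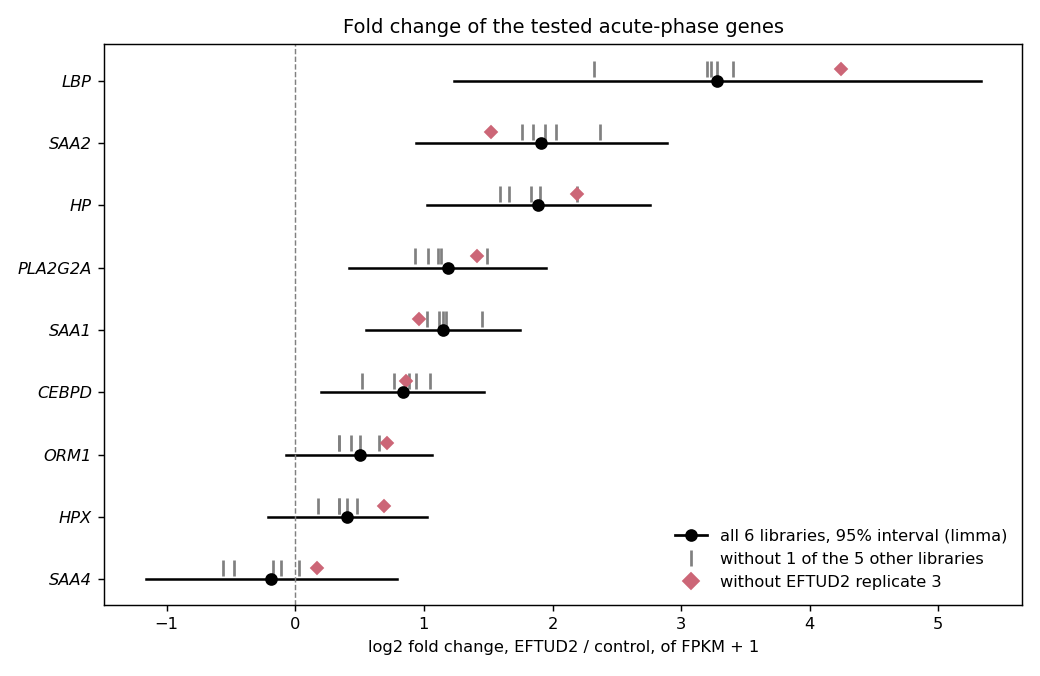
Log2 fold change of FPKM + 1, EFTUD2 over control (horizontal axis), of the 9 tested acute-phase genes. Black points and lines give the limma estimate from the 6 libraries with its 95% interval, grey ticks the estimates that each leave out 1 of the 5 other libraries, and red diamonds those without EFTUD2 replicate 3. The intervals of SAA4, HPX and ORM1 include 0, and leaving out EFTUD2 replicate 3 moved LBP from 3.28 to 4.24 and SAA4 from -0.19 to 0.17.

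The serum amyloid A genes encode small apolipoproteins of HDL. SAA1 and SAA2 encode the inducible forms, while SAA4 encodes the form made constitutively by the liver. In RefSeq coordinates of GRCh38.p14 the 3 genes lie beside each other on chromosome 11, SAA4 (Entrez gene 6291) from 18231355 to 18236802, SAA2 (Entrez gene 6289) from 18238236 to 18248668 and SAA1 (Entrez gene 6288) from 18266264 to 18269967.

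SAA1 was at 0.05, 0.12 and 0.09 FPKM across controls, against 0.57, 1.85 and 2.11 FPKM with EFTUD2. The lowest EFTUD2 library was 4.75 times the highest control, and EFTUD2 replicate 3 was the highest of all. Its log2 fold change was 1.15 ± 0.25 (SE, limma adjusted p = 0.33; exact permutation test, two-sided p = 0.1, the smallest that 3 libraries against 3 allow). With pseudocounts of 0.1 and 0.01 FPKM in place of 1, its log2 fold change was 2.95 and 3.84. SAA2 showed the same order of EFTUD2 libraries, with 0.55, 0.07 and 0.37 FPKM in the controls and 1.63, 4.41 and 7.49 FPKM in the EFTUD2 replicates. Its log2 fold change was 1.91 ± 0.41 (SE, limma adjusted p = 0.33; exact permutation p = 0.1). With the smaller pseudocounts SAA2 was at 3.39 and 3.88.

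SAA4 was far more abundant than both and did not share this pattern. It was at 59.9, 122.7 and 100.9 FPKM across controls, against 77.4, 134.9 and 47.9 FPKM with EFTUD2, so that the groups overlapped and the highest and the lowest value both belonged to the EFTUD2 group. Its log2 fold change was -0.19 (95% interval -1.16 to 0.79, limma adjusted p = 0.83; exact permutation p = 0.8), and its direction turned without EFTUD2 replicate 3 (0.17) and without control replicate 2 (0.03). The readthrough transcript SAA2-SAA4 was listed at 0 in each control, against 0.13, 0.15 and 0.54 FPKM with EFTUD2.

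Reads can be shared among these genes. In the protein-coding transcripts of GENCODE release 29, 46.6% of the 50-base windows of SAA1 also occurred in SAA2, 63.4% of those of SAA4 occurred in SAA2-SAA4, and 0 of those of SAA4 occurred in SAA1. The values of SAA1 and SAA2 may therefore have been divided between them by the quantification, and their separate levels are uncertain. SAA4 shared 0 windows with SAA2 as well, but SAA2-SAA4 shared 31.7% of its windows with SAA2 and 62% with SAA4, so reads of this readthrough transcript could be counted under both.

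Of the 10 members, 5 (SAA4, CRP, HPX, ORM1 and PLA2G2A) had an entry in the RefSeq promoter table of GRCh38.p14, which gives 250 bases before and 50 bases after a transcription start. SAA1, SAA2, LBP, HP and CEBPD had none. On both strands the windows were searched for a STAT site (TTCNNNGAA, in 7.66% of the 35116 promoters of the table), the type II IL-6 response element (CTGGGAA, 10.8%), a C/EBP site (TTGCNNAA, 10.5%) and an NF-kB site (GGGNNTTTC, 4.78%). The promoters below are shown because they belong to the SAA gene that did not differ detectably, a gene listed at 0, and members with and without overlap between the groups. Capitals mark the matches, which describe letters and not sites in use. SAA4 held 3 C/EBP matches on the reverse strand, which begin at -236, -69 and -54 from the start site. HPX held 1 C/EBP match at -203 on the forward strand and 1 type II element at -75 on the reverse strand, and no matches overlapped. No match was found in the window of CRP, in that of ORM1 or in the 3 windows of PLA2G2A.
SAA4 (chr11:18236753-18237052, minus strand): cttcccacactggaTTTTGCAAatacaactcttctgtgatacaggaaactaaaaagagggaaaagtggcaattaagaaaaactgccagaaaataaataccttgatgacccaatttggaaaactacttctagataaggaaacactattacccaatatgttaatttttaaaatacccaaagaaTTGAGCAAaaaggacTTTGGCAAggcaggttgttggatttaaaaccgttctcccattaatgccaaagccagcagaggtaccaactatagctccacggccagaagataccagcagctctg
HPX (chr11:6440938-6441237, minus strand): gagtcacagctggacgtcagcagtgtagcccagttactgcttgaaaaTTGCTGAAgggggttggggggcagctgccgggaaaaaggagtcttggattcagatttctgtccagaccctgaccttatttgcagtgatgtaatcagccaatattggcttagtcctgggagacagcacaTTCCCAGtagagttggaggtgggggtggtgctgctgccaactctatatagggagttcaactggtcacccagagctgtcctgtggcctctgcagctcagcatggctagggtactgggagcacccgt
CRP (chr1:159714540-159714839, minus strand): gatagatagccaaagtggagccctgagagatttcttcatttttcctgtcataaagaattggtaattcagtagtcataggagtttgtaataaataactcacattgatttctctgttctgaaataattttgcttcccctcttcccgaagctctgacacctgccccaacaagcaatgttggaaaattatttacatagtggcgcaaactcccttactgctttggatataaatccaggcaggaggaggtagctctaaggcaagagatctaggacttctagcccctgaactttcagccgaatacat
PLA2G2A (chr1:19979610-19979909, minus strand): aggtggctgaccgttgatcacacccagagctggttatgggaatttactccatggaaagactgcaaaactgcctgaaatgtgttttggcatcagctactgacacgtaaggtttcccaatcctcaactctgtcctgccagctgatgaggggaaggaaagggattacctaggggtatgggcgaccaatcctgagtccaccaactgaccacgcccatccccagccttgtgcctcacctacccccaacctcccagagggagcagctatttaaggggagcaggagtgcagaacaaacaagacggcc

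CRP encodes C-reactive protein, the pentraxin measured in the clinic as a sign of inflammation. CRP (Entrez gene 1401, chromosome 1 from 159712289 to 159714589) was listed at 0 in the 6 libraries, so no comparison was possible. APCS, which encodes the related pentraxin serum amyloid P, was also listed at 0 in each library. An exact 0 in a table of FPKM may also be a failed estimate, and how few reads it allows is unknown without the depth.

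LBP encodes the plasma protein that passes bacterial lipopolysaccharide to CD14. LBP (Entrez gene 3929, chromosome 20 from 38346482 to 38377013) was at 0.1, 0.15 and 0.46 FPKM across controls, against 10.9, 44.0 and 2.15 FPKM with EFTUD2. All EFTUD2 libraries lay above the controls, by 4.67 to 95.6 times the highest control, and the level of replicate 3 was 0.0489 times that of replicate 2. The log2 fold change was 3.28 ± 0.86 (SE, limma adjusted p = 0.4; exact permutation p = 0.1), and it lay between 2.32, without EFTUD2 replicate 2, and 4.24, without EFTUD2 replicate 3. With pseudocounts of 0.1 and 0.01 FPKM it was 5.08 and 5.65.

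HP and HPX encode scavengers of plasma, haptoglobin for free hemoglobin and hemopexin for free heme. HP (Entrez gene 3240, chromosome 16 from 72054505 to 72061055) was at 87.8, 111.2 and 182.3 FPKM across controls, against 447.7, 689.7 and 301.7 FPKM with EFTUD2. The groups were apart, the lowest EFTUD2 library being 1.65 times the highest control. The log2 fold change was 1.89 ± 0.37 (SE, limma adjusted p = 0.28; exact permutation p = 0.1), and the adjusted p was 0.052 without EFTUD2 replicate 3. HPR, the neighboring gene for haptoglobin-related protein, was at 17.1, 13.6 and 16.8 FPKM across controls, against 28.8, 27.9 and 21.9 FPKM with EFTUD2 (log2 fold change 0.69 ± 0.15 SE, limma adjusted p = 0.33, and 0.048 without EFTUD2 replicate 3). As 36% of the 50-base windows of HPR and 20.2% of those of HP occurred in the other gene, part of the reads of HPR may be reads of HP.

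HPX (Entrez gene 3263, chromosome 11 from 6431049 to 6440987) was at 8.13, 8.88 and 10.04 FPKM across controls, against 13.5, 16.9 and 7.9 FPKM with EFTUD2. EFTUD2 replicates 1 and 2 lay above the controls and replicate 3 below them. The log2 fold change was 0.4 (95% interval -0.21 to 1.02, limma adjusted p = 0.47; exact permutation p = 0.4). Without EFTUD2 replicate 3 it was 0.69 ± 0.13 (SE, limma adjusted p = 0.085).

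ORM1 encodes orosomucoid (alpha-1-acid glycoprotein), a lipocalin that binds drugs and lipids in plasma. ORM1 (Entrez gene 5004, chromosome 9 from 114323098 to 114326479) was at 149.1, 230.7 and 186.8 FPKM across controls, against 286.6, 325.6 and 194.1 FPKM with EFTUD2. EFTUD2 replicate 3 fell within the control range, and the other 2 EFTUD2 libraries were above it. The log2 fold change was 0.5 (95% interval -0.07 to 1.06, limma adjusted p = 0.41; exact permutation p = 0.2). The neighboring ORM2 followed the same order of libraries within the EFTUD2 group, with 183.2, 195.4 and 116.4 FPKM against 115.1, 163.7 and 138.7 FPKM in the controls (log2 fold change 0.22, limma adjusted p = 0.64). Of the 50-base windows of ORM1, 47.4% occurred in ORM2, so the levels of this pair are not independent.

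PLA2G2A encodes the secreted group IIA phospholipase A2, an enzyme that attacks bacterial membranes. PLA2G2A (Entrez gene 5320, chromosome 1 from 19975431 to 19980434) was at 110.0, 83.5 and 182.4 FPKM across controls, against 337, 299.7 and 197.9 FPKM with EFTUD2. The groups were apart, but EFTUD2 replicate 3 was only 1.09 times control replicate 3. The log2 fold change was 1.19 ± 0.32 (SE, limma adjusted p = 0.4; exact permutation p = 0.1).

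CEBPD encodes C/EBP delta, a transcription factor that STAT3 induces and that acts at acute-phase promoters. CEBPD (Entrez gene 1052) was at 28.4, 15.4 and 33.3 FPKM across controls, against 41.9, 48.6 and 43.2 FPKM with EFTUD2, the members' smallest spread within the EFTUD2 group relative to its mean. The log2 fold change was 0.84 ± 0.27 (SE, limma adjusted p = 0.4; exact permutation p = 0.1), and it was 0.52 without control replicate 2, the lowest control. CEBPB, which encodes the related C/EBP beta, was at 35.7, 28.1 and 34.4 FPKM across controls, against 41.5, 48.5 and 57.3 FPKM with EFTUD2 (log2 fold change 0.57 ± 0.15 SE, limma adjusted p = 0.4). CEBPA overlapped between the groups, with EFTUD2 replicate 3 lowest at 16.3 FPKM and a log2 fold change of -0.33 (limma adjusted p = 0.73).

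In FPKM, which is a level per length, ORM1 was the most abundant member in the controls (mean 188.8 ± 40.8, SD, n = 3, as for the values that follow), followed by HP (127.1 ± 49.2), PLA2G2A (125.3 ± 51.2) and SAA4 (94.5 ± 31.9), whose ranges overlapped with those of their neighbors in this order. CEBPD (25.7 ± 9.23) and HPX (9.02 ± 0.962) came next, apart from the others, and SAA2 (0.33 ± 0.242), LBP (0.237 ± 0.195) and SAA1 (0.0867 ± 0.0351) overlapped with each other and were near the lower limit of the table. With EFTUD2, HP led with a mean of 479.7 ± 196 FPKM, followed by PLA2G2A (278 ± 72.0), ORM1 (269 ± 67.6), whose ranges overlapped with that of HP, and SAA4 (86.7 ± 44.3). LBP (19.02 ± 22.1) stood between CEBPD (44.6 ± 3.53) and HPX (12.8 ± 4.55) on average, and its libraries ranged across both. SAA2 (4.51 ± 2.93) and SAA1 (1.51 ± 0.824) were the lowest of those listed above 0 and overlapped.

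The 9 members listed above 0 fell into different orders within the EFTUD2 group. EFTUD2 replicate 3 was the lowest EFTUD2 library for 6 of them (SAA4, LBP, HP, HPX, ORM1 and PLA2G2A) and the highest for SAA1 and SAA2. It was also the lowest for 57.8% and the highest for 31.3% of all genes tested. The level of replicate 3 relative to replicate 2 was 0.0489 for LBP, 0.437 for HP, 0.66 for PLA2G2A, 0.889 for CEBPD, 1.14 for SAA1 and 1.7 for SAA2. EFTUD2 mRNA itself had a ratio of 1.06 between these libraries. Low ratios were also seen for IL6 (0.0505), the basal keratin gene KRT17 (0.0688) and the fibroblast markers COL3A1 (0.094), COL1A1 (0.0537) and LUM (0.0179). The fibroblast marker PDGFRB went the other way (3.04). SOCS3 was at 0.315. The marker genes were named after their values were seen, and the share of all genes with so low a ratio was not computed.

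**Figure D3:**
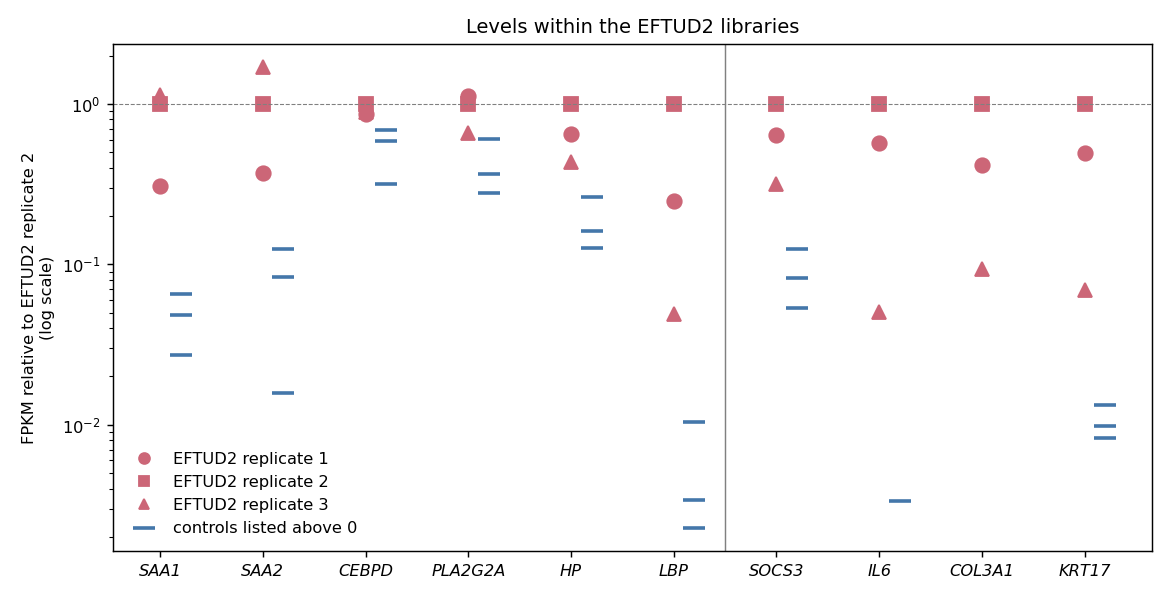
FPKM of each EFTUD2 library (red, symbols by replicate) and of the controls listed above 0 (blue bars) relative to EFTUD2 replicate 2 (vertical axis, log scale) for the 6 acute-phase genes with groups that do not overlap (left of the line) and for SOCS3, IL6, COL3A1 and KRT17 (right of it). EFTUD2 replicate 3 lies at 1.14 and 1.7 for SAA1 and SAA2 but at 0.0489 for LBP, near IL6, COL3A1 and KRT17, and at 0.315 for SOCS3.

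Markers of other cell types are given beside these values. Of 4 basal epithelial markers, KRT17 was at 1.12, 1.8 and 1.32 FPKM across controls, against 66.9, 135.1 and 9.29 FPKM with EFTUD2, KRT14 reached at most 0.83 FPKM, TP63 0.01 FPKM, and KRT5 was listed at 0. Summed, these 4 genes ranged from 1.12 to 1.8 FPKM in the controls and from 9.39 to 136 FPKM in the EFTUD2 libraries. The 6 fibroblast markers summed to between 0.51 and 1.58 FPKM in the controls and between 2.33 and 4.82 FPKM in the EFTUD2 libraries. PDGFRB made up most of each control sum and of the sum in EFTUD2 replicate 3. It overlapped between the groups (1.43, 0.41 and 1.05 FPKM against 1.1, 0.68 and 2.07 FPKM). COL3A1 (0, 0 and 0 FPKM against 0.62, 1.49 and 0.14 FPKM) was the 1 of these 6 markers with no overlap between the groups, and COL1A2 was listed at 0. The 5 endothelial markers summed to between 1.09 and 1.6 FPKM in all libraries, with opposite differences among the 3 tested: VWF (0.33, 0.15 and 0.27 FPKM against 0.6, 0.54 and 0.46 FPKM) and CDH5 (0.06, 0.08 and 0.07 FPKM against 0.19, 0.28 and 0.28 FPKM) were higher, and PECAM1 (0.98, 0.85 and 1.19 FPKM against 0.81, 0.62 and 0.54 FPKM) was lower, each without overlap. Of 7 macrophage markers, TYROBP was listed at 0 and PTPRC at no more than 0.02 FPKM, while LYZ, at 743.6 FPKM or more in each library, made up nearly all of a sum that ranged from 774.9 to 2279.7 FPKM in the controls and from 883.2 to 1747 FPKM in the EFTUD2 libraries. The part of such genes in the values of LBP and the other members was not tested.

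The other positive acute-phase proteins were described as a list of 22 genes, which like the members was chosen with earlier results of these data known. Of 21 tested, 20 had a higher mean with EFTUD2 (37.3% of all genes tested), and the exception was MBL2 (log2 fold change -0.19). At an unadjusted p under 0.05, 15 of the 21 were higher (4.4% of all genes tested). In 16 of the 21 each EFTUD2 library was above each control (7.92% of all genes tested). Their median log2 fold change of 0.79 compares with -0.07 for the 17222 genes. Adjusted over all genes, 0 were called.

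The genes with the smallest p in this list were C4BPA, CFB and LRG1. C4BPA, which encodes the alpha chain of the complement inhibitor C4b-binding protein, was at 7.98, 7.02 and 9.39 FPKM across controls, against 20.3, 21.4 and 22.5 FPKM with EFTUD2 (log2 fold change 1.3 ± 0.13 SE, limma adjusted p = 0.13, and 0.026 without EFTUD2 replicate 3). CFB, for complement factor B, was at 58.7, 42.0 and 73.1 FPKM and at 143.9, 158.6 and 149.7 FPKM (log2 fold change 1.4 ± 0.2 SE, limma adjusted p = 0.21). LRG1, for leucine-rich alpha-2-glycoprotein, was at 22.1, 21.4 and 29.6 FPKM and at 45.5, 56.7 and 59.2 FPKM (log2 fold change 1.12 ± 0.17 SE, limma adjusted p = 0.21). Where the level of EFTUD2 replicate 3 relative to replicate 2 was 0.0489 for LBP, it was 1.05 for C4BPA, 0.944 for CFB and 1.04 for LRG1. Control replicate 2 was the lowest control for 17 of the 21 tested genes, and for 6392 of all 17222 genes tested. Without it, 14 of the 21 were higher at an unadjusted p under 0.05 and their median was 0.66. Of all 17293 genes tested without it, 377 were higher at that threshold, and the median was -0.08.

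The negative acute-phase proteins are those the liver makes less of during the response. Of 12 tested, 9 had a higher mean (37.3% of all genes tested), with a median log2 fold change of 0.29. The median was 0 without EFTUD2 replicate 3, the highest EFTUD2 library for 11 of the 12. At an unadjusted p under 0.05, 1 was higher and 0 lower, where 4.4% and 7.9% of all genes tested were. Without overlap between the groups, 2 were higher and 0 lower, where 7.92% and 19.4% of all genes tested were. The lowest p belonged to SERPINA7, for thyroxine-binding globulin, at 117.3, 82.2 and 127.6 FPKM across controls, against 178.9, 154.5 and 144.5 FPKM with EFTUD2 (log2 fold change 0.56, limma adjusted p = 0.4). ALB, for albumin, overlapped between the groups, at 1772.9 to 3027.1 FPKM in the controls and 2215.2 to 4731.6 FPKM in the EFTUD2 libraries (log2 fold change 0.3, limma adjusted p = 0.68), as did TTR, for transthyretin (log2 fold change -0.28, limma adjusted p = 0.64). Without EFTUD2 replicate 3, TTR was at -0.59 (limma adjusted p = 0.22), and it was called lower with gene-by-gene weights (-0.53, limma adjusted p = 0.047).

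**Figure D4:**
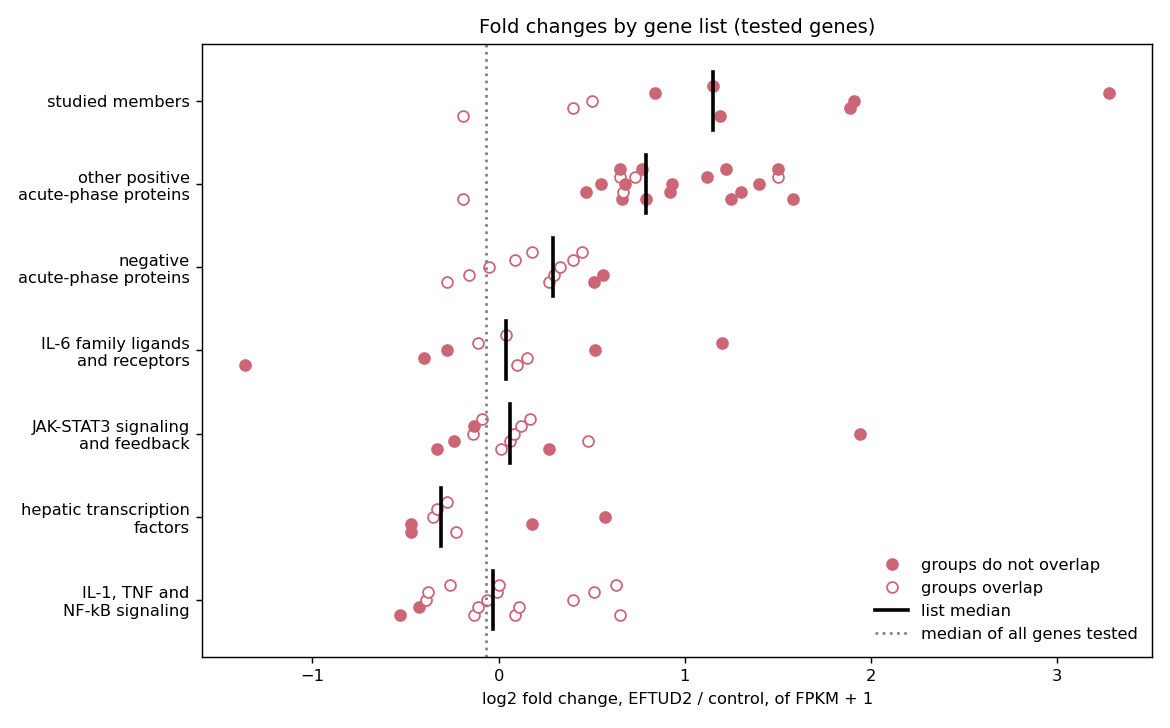
Log2 fold change of FPKM + 1, EFTUD2 over control (horizontal axis), of the tested genes of 7 lists, with 1 point per gene, filled where the libraries of the 2 groups do not overlap. Black bars mark list medians and the dotted line the median of all genes tested (-0.07): the medians of the studied genes (1.15) and of the other positive acute-phase proteins (0.79) lie to its right, and that of the hepatic transcription factors (-0.31) to its left.

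Genes upstream of the acute-phase response were described in the same way. In the list of IL-6 family ligands and receptors, 2 of 9 tested genes were higher and 2 lower at an unadjusted p under 0.05, where 4.4% and 7.9% of all genes tested were. IL6 was listed at 0.01, 0 and 0 FPKM across controls, against 1.69, 2.97 and 0.15 FPKM with EFTUD2 (log2 fold change 1.2 ± 0.41 SE, limma adjusted p = 0.4). OSMR, the oncostatin M receptor subunit, was at 34.5, 29.5 and 38.0 FPKM and at 48.5, 47.9 and 50.4 FPKM (log2 fold change 0.52, limma adjusted p = 0.36). IL11, a cytokine of the same family, was lower, at 9.92, 7.99 and 8.11 FPKM and at 3.02, 1.91 and 3.49 FPKM (log2 fold change -1.36 ± 0.19 SE, limma adjusted p = 0.21). IL6 and IL11 were called without EFTUD2 replicate 3 (limma adjusted p = 0.026 and 0.028), but IL6, near 0 in the controls, passed the limit of 0.1 FPKM only through the EFTUD2 libraries, as SAA1 did. The groups did not overlap for IL6, OSMR, IL11, IL6R and LIF, the last 2 and IL11 being lower. Of all genes tested, 7.92% were higher and 19.4% lower without overlap. IL6R, the binding subunit of the IL-6 receptor, was at 12.6, 19.0 and 14.6 FPKM and at 10.7, 11.1 and 11.98 FPKM (log2 fold change -0.4, limma adjusted p = 0.4), and IL6ST, which encodes gp130, overlapped (log2 fold change 0.1, limma adjusted p = 0.69).

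In the list of JAK-STAT3 signaling and feedback, 2 of 13 tested genes were higher and 0 lower at an unadjusted p under 0.05. Of all genes tested, 4.4% were higher and 7.9% lower at that threshold. Each EFTUD2 library was above each control for 2 of the 13 and below each control for 3 (7.92% and 19.4% of all genes tested). SOCS3, a feedback inhibitor that STAT3 induces, was at 0.85, 0.55 and 1.29 FPKM across controls, against 6.68, 10.4 and 3.27 FPKM with EFTUD2 (log2 fold change 1.94 ± 0.36 SE, limma adjusted p = 0.27, and 0.026 without EFTUD2 replicate 3). STAT3 was at 52.4, 48.6 and 50.5 FPKM and at 63.2, 67.1 and 53.8 FPKM (log2 fold change 0.27, limma adjusted p = 0.4), and SOCS1 overlapped (log2 fold change 0.48, limma adjusted p = 0.4). Of the 8 hepatic transcription factors tested, 1 was higher and 2 were lower at an unadjusted p under 0.05 (4.4% and 7.9% of all genes tested). Without overlap between the groups, 2 were higher and 2 lower (7.92% and 19.4% of all genes tested). CEBPB was the 1 higher at that threshold, and the coactivator gene EP300 was 1 of the 2 lower (log2 fold change -0.47, limma adjusted p = 0.4). HNF4A was at 65.4, 79.9 and 75.6 FPKM across controls, against 72.5, 70.4 and 47.3 FPKM with EFTUD2, with replicate 3 again the lowest.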

How the data were processed

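RNA-Seq values of 3 control and 3 EFTUD2-overexpressing Hep G2 libraries were analysed. The authors selected poly-A RNA, used BGISEQ-500 sequencing and deposited FPKM values, rounded to 2 decimals, in 1 table. The submitters' processing notes name hg38, HISAT2, Bowtie2, RSEM and DESeq2 without roles or versions, and read depth is not given in the sources used here (the commonest ratio between low values of libraries held at most 2.67% of genes, so no common step was found). RSEM-type estimates divide reads between similar transcripts.

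Genes averaging 0.1 FPKM or more over the libraries were compared as log2(FPKM + 1) with limma 3.58.1 (eBayes with trend, R 4.3.3), with Benjamini-Hochberg adjustment over 17222 genes, and single genes by an exact two-sided permutation test (scipy 1.17.1). The script was tested on simulated data. The members and gene lists were chosen with earlier results of these data known. Genes outside the members are the close relatives, the 3 with the smallest p of each list, and IL6, IL6R, IL6ST, STAT3 and SOCS3 (1 gene that this rule names is not reported here); MBL2, ALB, TTR, LIF, HNF4A, further marker genes and those the text contrasts with them were named after their values were seen. Alternatives were other pseudocounts, filters, scalings, robust fits, array weights, a replicate block, and each library left out. Of 18762 Entrez numbers, 18449 matched the RefSeq table used for symbols and coordinates (GRCh38.p14). No column belonged to other samples.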

Additional observations from a re-analysis of the deposited data

How the results depend on the processing

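Limits: with 3 libraries a group, the adjusted p of no member passed 0.05 in the main comparison, and without read depth the lowest values (SAA1, SAA2, LBP and SAA2-SAA4) have no counting interval. Scaling by the median of ratios moved the median log2 fold change of all genes from -0.07 to 0, quantile scaling to -0.03 and a common sum to -0.1, and the direction of each member was the same under the 3 scalings.

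Of 169 values of single genes recomputed under the alternatives, 152 kept direction and side of the threshold, 14 passed the threshold, and 3, all of SAA4, changed sign (range with 1 library left out -0.56 to 0.17): 0.26 with array weights, 0.03 without control replicate 2 and 0.17 without EFTUD2 replicate 3. The members called were 4 with array weights and 6 with weights gene by gene, an alternative chosen after the data were seen, and all genes called were 1246 and 1355. With each library left out, the members called ranged from 0 to 1 and all genes called from 0 to 167, the upper values both without EFTUD2 replicate 3. Pseudocounts of 0.1 and 0.01 changed 0 calls of members but raised the log2 fold changes of SAA1, SAA2 and LBP, which have low controls, to between 2.95 and 5.65. The array weights did not converge, and the cause of these changes was not tested. The labels do not say whether the replicate numbers pair the samples. Deviations of same-numbered libraries from their group means correlated at -0.3, 0.35 and -0.09, which cannot settle this with 3 libraries a group. With the replicate block 0 members and 0 genes were called.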

Other observations

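Among receptors and partners of the acute-phase proteins, 3 of 8 tested genes were higher and 0 lower at an unadjusted p under 0.05, beside 4.4% and 7.9% of all genes tested. CD14, the receptor to which LBP passes lipopolysaccharide, was at 0.86, 0.6 and 1.03 FPKM across controls, against 1.41, 2.06 and 2.51 FPKM with EFTUD2 (log2 fold change 0.7, limma adjusted p = 0.4). LY96, for the MD-2 partner of TLR4, was at 1.28, 1.19 and 1.4 FPKM and at 1.63, 1.89 and 1.85 FPKM, while TLR4 itself was at 0.22 FPKM or less in each library. LRP1, the receptor for hemopexin-heme complexes, was at 32.9, 36.7 and 43.8 FPKM and at 47.8, 46.6 and 51.0 FPKM (log2 fold change 0.36, limma adjusted p = 0.4). CD163, the macrophage receptor for haptoglobin-hemoglobin complexes, reached at most 0.05 FPKM.

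In the list of IL-1, TNF and NF-kB signaling, 1 of 16 tested genes was higher (NFKBIZ, for the regulator I-kappa-B zeta, log2 fold change 0.51, limma adjusted p = 0.4) and 0 were lower at an unadjusted p under 0.05, where 4.4% of all genes tested were higher and 7.9% lower. The median log2 fold change of this list was -0.03. IL1R1, the IL-1 receptor, was at 22.5, 18.4 and 26.7 FPKM across controls, against 43.8, 44.7 and 22.9 FPKM with EFTUD2, with replicate 3 within the control range (log2 fold change 0.65, limma adjusted p = 0.4).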
